A study of Mus musculus with 12 samples.

Results

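Mouse hearts exposed to both sorafenib and PLX3397 were compared with control hearts by RNA sequencing. The comparison uses 6 of the 12 libraries of the series: the 3 whose titles name both agents and the 3 titled as control, chosen by those titles alone. The table lists 30199 genes, and 18897 of them had enough counts to be tested. All animals were C57BL/6J mice; hearts were collected after 28 days of sorafenib, and the labels describe the second drug as an agent that clears macrophages. The other 6 libraries, 3 from mice given PLX3397 alone and 3 from mice given sorafenib alone, entered the same model and are set beside the combination at the end. Dose, route, sex, age, hour of tissue collection, the schedule of PLX3397 and what the controls received are not stated in the labels. Nor is it stated that each library came from its own animal, so the p-values measure the spread between these samples only, which may be technical.

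Sorafenib is a cancer drug that inhibits several kinases, among them RAF and the receptors for VEGF and PDGF, and it is known for toxicity to the heart. PLX3397, also called pexidartinib, inhibits CSF1R, the receptor for the growth factors CSF1 and IL-34, and also KIT and FLT3. Tissue macrophages need signals from CSF1R to survive. In the heart they line vessels and muscle fibres, take up debris and dying cells, make the complement protein C1q and present antigen. Heart cells also carry a circadian clock, in which ARNTL (BMAL1) and CLOCK activate the Per and Cry genes, whose proteins in turn repress ARNTL and CLOCK.

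With both agents, the hearts held less RNA of macrophage genes and of cell division genes, and more RNA of several heart muscle genes, while clock genes moved in both directions. Of 24 pan-macrophage genes tested, 17 fell and none rose; of 30 cell cycle genes, 27 fell and 1 rose. Of 6 clock repressors, 4 rose, while the clock activator Arntl fell from 14.8 ± 2.36 to 2.55 ± 1.27 CPM (mean ± SD, n = 3 in each group). Of 23 contractile genes of heart muscle, 13 rose and none fell. RNA of brain cells and a trend with gene length, both given below, also separated these groups. With either as a covariate 1 cell cycle gene and 0 contractile genes were called, against 5 and 2 pan-macrophage genes. Cyp1a1, which encodes a cytochrome P450 enzyme that oxidises aromatic compounds, rose by 4.01 ± 0.34 (SE) on the log2 scale. Pde2a, the phosphodiesterase in the title of the study, was not called, at 57.6 ± 1.89 CPM against 56.7 ± 6.73 CPM in controls.

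Across all genes, 3046 of 18897 (16.1%) had an adjusted p under 0.05 in edgeR's quasi-likelihood test with Benjamini-Hochberg adjustment, and these are the genes called here. Of these, 1507 (7.97% of genes tested) were higher with both agents and 1539 (8.14%) were lower. A change of at least 2-fold was seen in 890 of the called genes (4.71% of genes tested), 152 higher (0.804%) and 738 lower (3.91%), so the larger changes were mostly falls. The 3 libraries of each group did not overlap for 35.6% of all genes tested, and 2994 of the called genes were among them. When each of the 6 libraries was left out in turn, the number called ranged from 1261 (without control replicate 3) to 3274 (without control replicate 1). It was 1289 without combination replicate 1, 1681 without control replicate 2 and 1781 without combination replicate 2. Both directions were equal among the 996 genes called in every one of these fits, with 498 higher and 498 lower.

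Total estimated counts were between 61672657 and 64537365 in the 6 libraries, and mitochondrial genes took 29.2% to 33.5% of them. Heart muscle markers were high in all, with the myosin gene Myh6 between 7105.3 and 15183.4 CPM; CPM are counts scaled to library size with edgeR's TMM factors. Correlations of log2 CPM between libraries of a group were 0.97 to 0.973 for controls and 0.968 to 0.97 for the combination. The TMM factors separated the groups, at 1.09, 1.019 and 1.044 in controls and at 0.954, 0.933 and 0.98 with both agents. For them an exact two-sided permutation test gave p = 0.1, the smallest that 3 against 3 can give. Their part in the results was not tested. Before any result, 2 further properties that separate the groups need to be given. The first is RNA of brain cells. A list of 29 neuron and glia markers, chosen after its values were seen, summed to 427 to 487 CPM in controls and to 194 to 198 CPM with both agents, and none of the markers was at 0 in a library. Snap25, a synaptic protein gene, was at 28.5, 23.5 and 28.8 CPM in controls and at 7.52, 8.56 and 9.68 CPM with both agents. Of the 29 markers, 14 were called lower and none higher, with a median log2 fold change of -1.56 against -0.02 over all genes tested. The number called lower was 11 without control replicate 1, 8 without control replicate 2 or combination replicate 2, 6 without combination replicate 3 and 5 without control replicate 3 or combination replicate 1. A fit of only the 6 libraries compared called 25. The mean level of the list was between -1.36 and -1.51 on the log2 scale below the control mean in all 3 combination libraries (exact two-sided permutation test p = 0.1, the smallest that 3 against 3 can give). PLX3397 replicate 1 was at the control level, at 0.02, and the other PLX3397 libraries were at -1.65 and -1.45; the sorafenib libraries were at -1.55, -0.46 and -1.48.

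The second property is gene length. Protein-coding genes with at least 1 FPKM were sorted into 5 groups of equal size by exon length. In the group with the shortest exons, with a median of 1704 bases, 2.03% of genes were called higher and 16.4% lower. In the group with the longest, with a median of 9413.5 bases, 31.5% were called higher and 2.64% lower. The median exon length was 7165 bases for genes called higher, 2999 for those called lower and 4110 for the rest. The log2 level of each gene was set to a mean of 0 in controls, and the median over each group of genes was taken per library. The median of the longest group less that of the shortest was 0.25, -0.04 and -0.22 in the 3 controls and 0.5, 0.42 and 0.37 with both agents. Control replicate 1 thus lay nearest to the combination on this scale. With the brain marker level of each library as a covariate, 88 genes were called (0.466%), 30 higher and 58 lower, and 78 of the 3046 were among them. With the length trend as a covariate, 42 were called (0.222%), 11 higher and 31 lower, and 41 of the 3046 were among them. In both fits the median SE was 0.28 against 0.19. The covariate and the group move together there, so a lost call does not show that a gene was unchanged. Counts under the covariates are given in the order brain, then length, and beyond them the part of either property in the results was not tested.

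**Figure D1:**
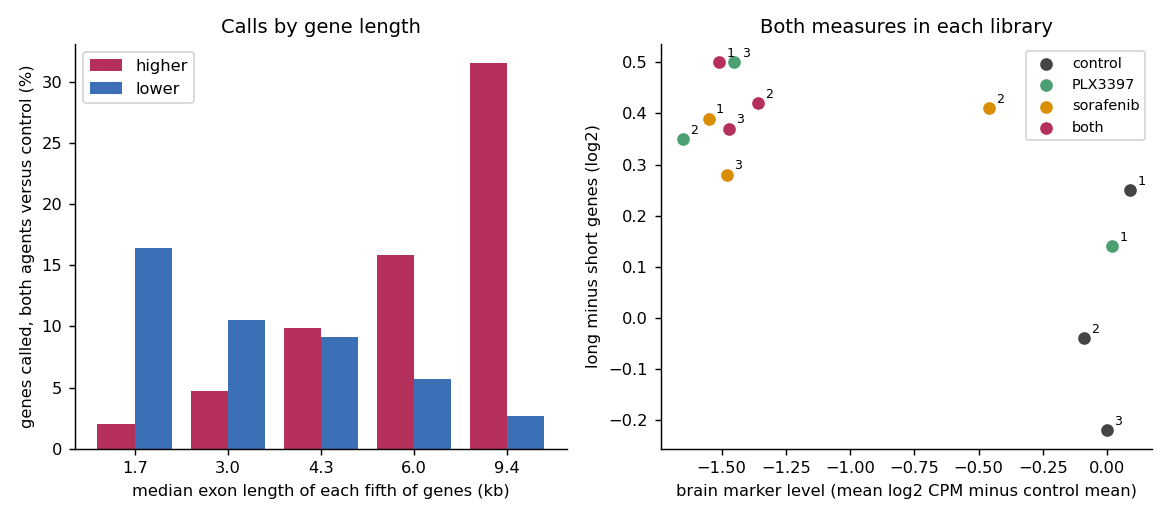
Percent of genes called higher and lower with both agents in 5 groups of exon length (left), and for each of the 12 libraries the brain marker level against the level of long genes less that of short genes, both on the log2 scale relative to the control mean, with points numbered by replicate (right). The percent called higher goes from 2.03 in the shortest to 31.5 in the longest group, and the combination libraries lie below the controls in brain marker level.

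Csf1r, the receptor that PLX3397 inhibits and a marker of macrophages (ENSMUSG00000024621, chromosome 18, 61100598 to 61131134 on mm10), was at 59.1, 48.3 and 53.7 CPM in controls. With both agents it was at 12, 15.8 and 15.5 CPM. Every combination library was below every control, and the log2 fold change was -1.9 ± 0.17 (SE, n = 3 in each group, adjusted p = 9.89e-05). The call held under all 17 other settings tried and under both covariates. In bulk tissue, fewer macrophages and less of the RNA in each macrophage cannot be told apart, and this holds for every cell type marker below.

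Of 20 resident macrophage markers, 13 fell and none rose, with a median log2 fold change of -1.0. Timd4, a receptor for dying cells on long-lived resident macrophages, was at 2.61, 1.89 and 2.55 CPM in controls and at 0.0675, 0.19 and 0.215 CPM with both agents. All 3 combination libraries were below every control (log2 fold change -3.88 ± 0.38, adjusted p = 0.000107). Folr2, the folate receptor of the same cells, was at 10.5, 9.12 and 12.2 CPM in controls and at 0.439, 0.638 and 0.794 CPM with both agents (-4.08 ± 0.48, adjusted p = 0.000608). The haemoglobin scavenger receptor Cd163 fell by 1.83 ± 0.3 and the Fc receptor-like gene Fcrls by 2.47 ± 0.21 on the log2 scale. Further members called lower included Mrc1, Stab1, Pf4, F13a1, Igf1, Sdc3, Ccl24 and Cd209f. Of the 13 calls, 3 held with the brain covariate and 2 with the length covariate, while the median was -1.23 and -1.13 in those fits.

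Among the pan-macrophage genes, the median log2 fold change was -1.24, and 23 of the 24 members were below 0. Cx3cr1, the fractalkine receptor, was at 3.61, 3.68 and 4.08 CPM in controls and at 0.945, 0.535 and 0.678 CPM with both agents (-2.39 ± 0.25, adjusted p = 0.000146). Cd14, a co-receptor for bacterial lipopolysaccharide, fell by 1.86 ± 0.22, and Cd83 fell by 2.0 ± 0.23. Adgre1, which encodes F4/80, was at 24.6, 16.6 and 18.1 CPM in controls against 7.71, 6.42 and 7.0 CPM (-1.49 ± 0.27, adjusted p = 0.00525). Cd68, a lysosomal membrane protein of phagocytes, was at 22.1, 16.6 and 17.1 CPM in controls against 9.68, 10 and 10.3 CPM (-0.89 ± 0.22, adjusted p = 0.0199). Its call was lost without control replicate 1 or 3 and without combination replicate 1 or 2, and under both covariates, although the groups did not overlap. With the brain and length covariates, 5 and 2 members were called, and the list median was -1.26 in each.

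**Figure D2:**
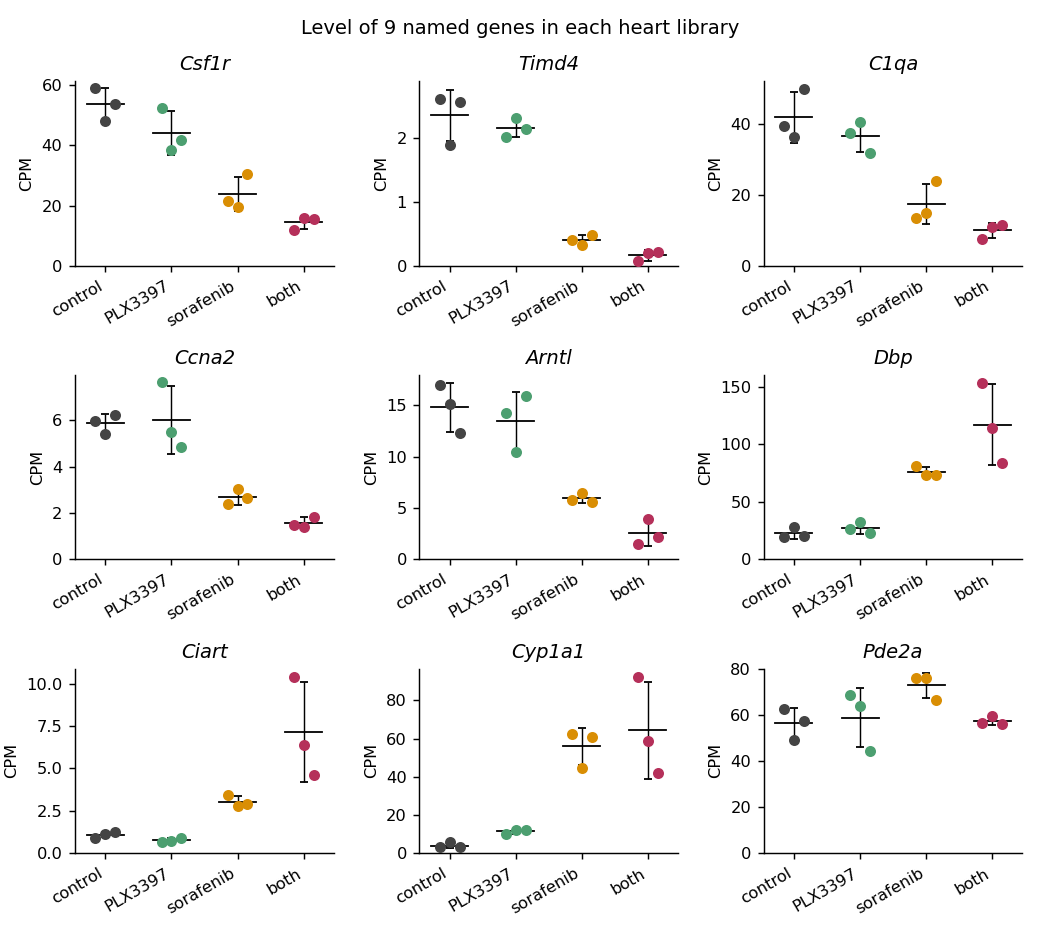
Level of 9 genes in CPM in each of the 12 libraries by group, with the mean as a line and the SD as bars (n = 3). Csf1r, Timd4, C1qa, Ccna2 and Arntl are lower with both agents than in every control, Dbp, Ciart and Cyp1a1 are higher, and Pde2a overlaps.

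Complement C1q is made largely by macrophages, and all 3 genes of its chains fell. C1qa was at 39.3, 36.2 and 49.9 CPM in controls and at 7.56, 10.9 and 11.4 CPM with both agents (-2.07 ± 0.23, adjusted p = 0.000413). C1qb and C1qc fell by 1.72 ± 0.2 and 1.88 ± 0.19. Cfp, which encodes properdin, the stabiliser of the alternative pathway convertase, fell by 1.28 ± 0.3, a call that was lost without combination replicate 1. The last member called was C3ar1, the receptor for C3a, and the other 10 of 15 complement genes were not called. The complement median was -0.85, and 3 members were called without combination replicate 1. With the covariates 3 and 1 were called.

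Genes of antigen presentation by MHC class II fell in 6 of 9 cases, with a median of -1.75. Cd74, the invariant chain that guides class II molecules, was at 86.9, 109.4 and 125.8 CPM in controls and at 25.4, 36.3 and 27.4 CPM with both agents (-1.85 ± 0.26, adjusted p = 0.00196). H2-Eb1, H2-Ab1 and H2-Aa, the class II chains, fell by 1.85 ± 0.23, 1.82 ± 0.3 and 1.8 ± 0.29. These genes are similar to each other and polymorphic, so reads could be split between them. The groups did not overlap for any of the 4 genes, but none of the 6 calls held under either covariate, where the medians were -1.22 and -0.66. Class I and immunoproteasome genes had 2 of 12 called lower, Psmb8 (-0.89 ± 0.16) and Psmb10 (-0.41 ± 0.12), both catalytic subunits of the immunoproteasome. That is 16.7% of the list, near the 16.1% called over all genes tested. The number was 1 without control replicate 2 or 3 or combination replicate 1, and 4 without combination replicate 3. DESeq2 called 5, limma on FPKM called 6, and with the covariates none was called.

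Receptors for antibody and the adaptors they share fell in 9 of 16 cases (median -1.29). Fcer1g, the common signalling chain of Fc receptors, was at 11.9, 11.4 and 11.1 CPM in controls and at 2.82, 4.05 and 2.83 CPM with both agents (-1.83 ± 0.24, adjusted p = 0.000603). Fcgr3 and the inhibitory receptor Fcgr2b fell by 1.82 ± 0.26 and 1.4 ± 0.21, and the adaptor Tyrobp fell by 1.49 ± 0.23. Of 7 genes of the phagocyte NADPH oxidase, which makes superoxide, 6 fell. Cybb, its catalytic subunit, was at 16.9, 15.5 and 15.5 CPM in controls and at 3.59, 4.12 and 2.48 CPM with both agents (-2.23 ± 0.24, adjusted p = 0.000224), and its call held under every alternative and both covariates. Ncf1 and Rac2, cytosolic parts of the enzyme, fell by 1.19 ± 0.22 and 1.18 ± 0.24, while only 4 oxidase genes were called without combination replicate 1. With the covariates 1 and 0 members of the Fc receptor list were called, and 1 and 1 of the oxidase list.

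Cytokine and chemokine genes fell in 8 of 24 cases, a number that was 3 without combination replicate 1, 4 without control replicate 3 and 5 without control replicate 2, and 1 with each covariate. Ccl9, a chemokine of myeloid cells, was at 20.2, 14.6 and 18.6 CPM in controls and at 4.1, 4.88 and 6.24 CPM with both agents (-1.81 ± 0.17, adjusted p = 9.89e-05). Tgfb1 fell by 0.64 ± 0.1 and the scavenger chemokine Cxcl16 by 0.79 ± 0.16. Il34, the other ligand of CSF1R, fell by 0.59 ± 0.19 (adjusted p = 0.0453), a call lost without any of 5 of the 6 libraries. Kitl, the ligand of KIT, rose by 0.42 ± 0.11, a call lost without control replicate 2 or 3 or combination replicate 1. Interferon-stimulated genes had 5 of 26 called lower and none higher. That is 19.2%, against 16.1% called in either direction and 8.14% called lower over all genes tested, and none was called with either covariate. The members called included Bst2 (-1.1 ± 0.18), Irf7 (-1.01 ± 0.18), Oas1a (-1.55 ± 0.3) and Ifi27l2a (-1.23 ± 0.24).

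Lists of other leukocytes differed in median and in level. None of 12 monocyte and neutrophil markers was called in edgeR's quasi-likelihood test or by DESeq2, and 0 had an unadjusted p under 0.05 (median 0.42). None of 15 T, B and NK cell markers was called by edgeR, with 1 under an unadjusted 0.05 and 1 called lower by DESeq2 (median -0.07). Their summed levels overlapped, at 8.17 to 19.1 CPM in controls and 12.8 to 20.7 CPM with both agents for the first list, and at 21.0 to 40.6 against 16.6 to 42.6 CPM for the second. Of 9 dendritic cell markers, Irf8, a transcription factor that monocytes and macrophages share, was the only one called (-1.17 ± 0.2), although 8 of the 9 were below 0 and the median was -1.47; 2 were called without combination replicate 2. The dendritic list summed to 20 to 24.8 CPM in controls and to 14.9 to 18.4 CPM with both agents. Of 6 mast cell markers, the proteases Cpa3 and Mcpt4 were called lower. All 6 were below 0, with a median of -2.2, and 4 had an unadjusted p under 0.05. Neither protease was called without combination replicate 1 or 3, and 1 mast cell marker was called without any of the controls. The mast cell list summed to 9.2 to 11 CPM in controls and to 4.37 to 9.35 CPM with both agents. None of these 4 leukocyte lists had a call with either covariate.

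**Figure D3:**
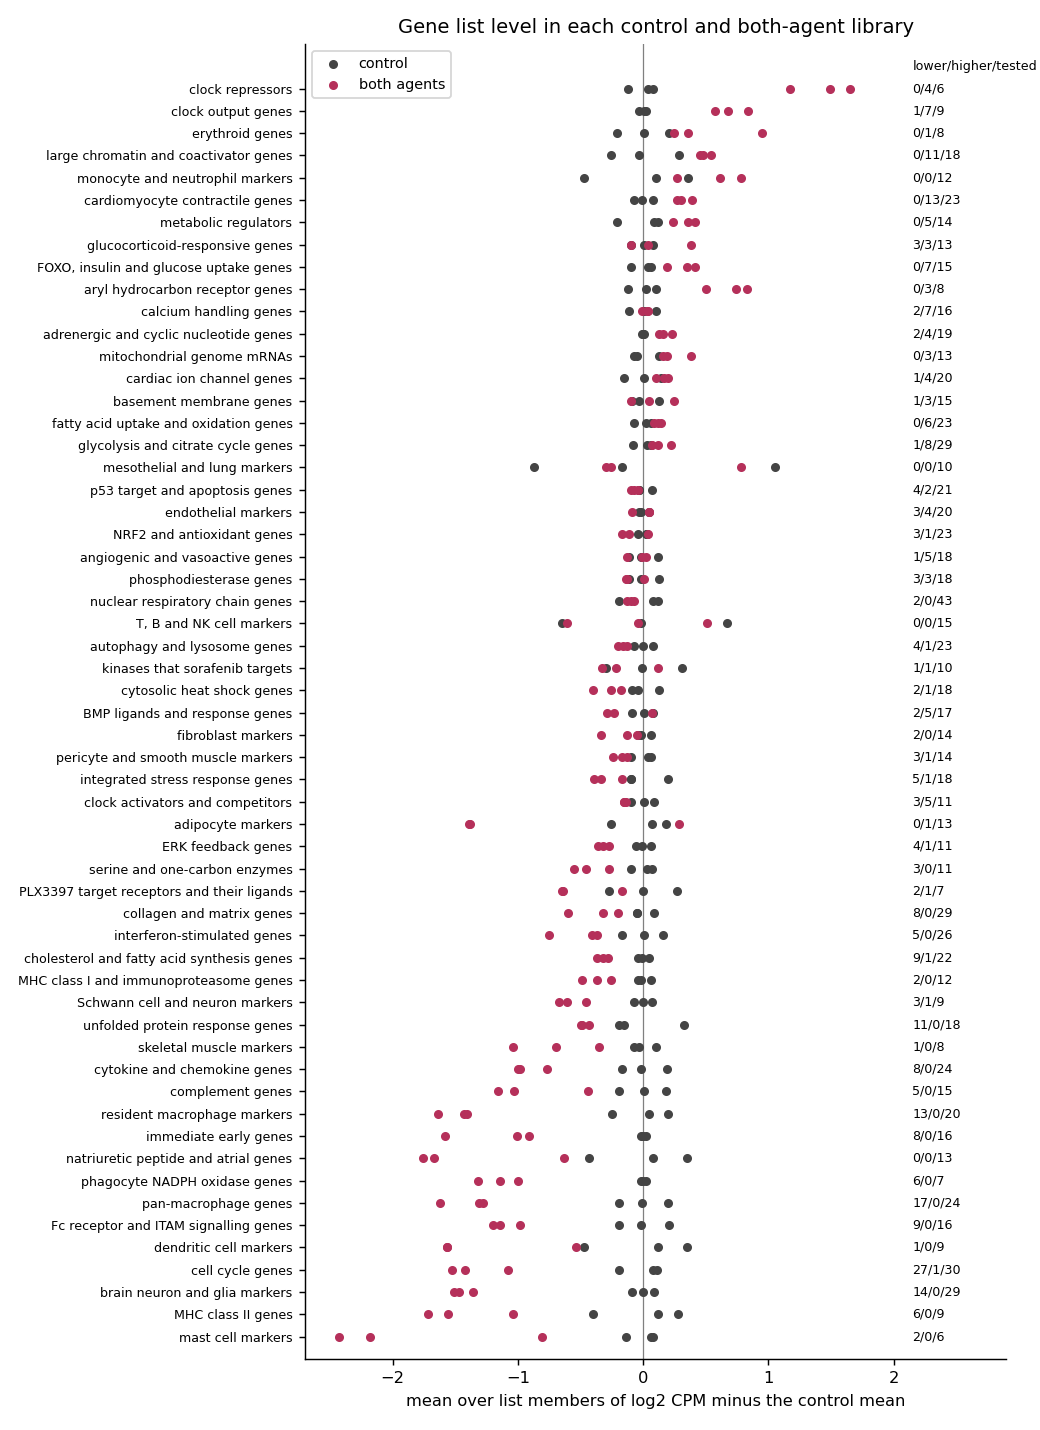
Mean log2 level of each gene list in the 3 control and 3 combination libraries, relative to the control mean, with the numbers of members called lower and higher and the number tested at the right. Macrophage, oxidase, class II and cell cycle lists lie below the controls, and clock repressors and clock outputs lie above.

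Of the 30 cell cycle genes, 27 fell, with a median of -1.49. Ccna2, the cyclin of S and G2 phase, was at 5.96, 5.42 and 6.22 CPM in controls and at 1.48, 1.4 and 1.84 CPM with both agents (-1.9 ± 0.21, adjusted p = 0.000206). Its 3 combination values lay far below all controls, and the call held under each alternative and covariate. Top2a, the topoisomerase that untangles chromosomes, was at 10.2, 7.91 and 9.07 CPM in controls and at 2.53, 2.36 and 4.32 CPM with both agents (-1.56 ± 0.21, adjusted p = 0.000731). The proliferation marker Mki67 fell by 1.55 ± 0.23, the spindle checkpoint kinase Bub1 by 2.19 ± 0.32 and the mitotic kinase Cdk1 by 2.22 ± 0.36. The replication helicase genes Mcm2, Mcm3, Mcm5 and Mcm6, Pcna, and the mitotic genes Aurka, Aurkb, Plk1, Tpx2 and Birc5 were also called lower. Cenpf, a kinetochore protein gene with a long transcript, was the exception: it rose from 15.3, 12.5 and 10.4 to 30.7, 22.8 and 26.4 CPM (1.07 ± 0.17, adjusted p = 0.00178). Cell cycle genes called lower numbered 13 without combination replicate 1, 16 without control replicate 3 and 17 without combination replicate 2. The call held for 1 member with each covariate, and the median was -1.09 in both fits; on the log2(FPKM + 0.5) scale it was -0.7.

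Many cell cycle promoters hold a CCAAT box beside a cell cycle homology region, the element that silences them outside of division. The Top2a window is shown because it holds several such letters; it is the RefSeq promoter window on GRCm38.p6, chr11:99024140-99024439, minus strand, from 250 bases before to 50 after the start of the gene. Capitals mark CCAAT and TTTGAA or TTCGAA on either strand, 10 matches in all.
Top2a: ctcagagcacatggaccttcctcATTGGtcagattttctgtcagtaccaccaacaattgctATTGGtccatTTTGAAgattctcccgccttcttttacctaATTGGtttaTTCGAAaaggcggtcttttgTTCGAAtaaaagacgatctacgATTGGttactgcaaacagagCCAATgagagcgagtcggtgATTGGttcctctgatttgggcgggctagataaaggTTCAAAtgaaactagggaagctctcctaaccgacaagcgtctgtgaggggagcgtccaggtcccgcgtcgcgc
Of the 26 cell cycle genes with a window, 21 (80.8%) held CCAAT and 15 (57.7%) held TTTGAA or TTCGAA. Among all 27025 genes in the table, 41.1% and 21.7% did. A match of these letters is a description of the window, not a bound site.

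Clock genes moved in both directions. Arntl, the core activator (ENSMUSG00000055116, chromosome 7, 113207465 to 113314126), was at 17.0, 15.1 and 12.3 CPM in controls and at 1.47, 3.95 and 2.22 CPM with both agents (-2.54 ± 0.29, adjusted p = 0.000386). Npas2, a partner that can replace CLOCK, fell by 1.42 ± 0.23. On the opposite arm, Per2 was at 3.17, 5.11 and 4.84 CPM in controls and at 25.2, 13.7 and 25.3 CPM with both agents (2.29 ± 0.29, adjusted p = 0.000803). Per3 rose by 2.08 ± 0.21 and Cry2 by 1.11 ± 0.14. Ciart, a repressor of the CLOCK and ARNTL complex, was at 0.917, 1.12 and 1.25 CPM in controls and at 10.4, 6.38 and 4.63 CPM with both agents (2.7 ± 0.29, adjusted p = 0.000154). None of these genes overlapped between the groups. The 4 repressors called, Ciart, Per3, Cry2 and Per2, were called in each fit that left out a library, and the median of the 6 was 1.6.

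The nuclear receptors Nr1d1 and Nr1d2 (REV-ERB), which repress Arntl, rose by 0.95 ± 0.2 and 1.11 ± 0.09. Nr1d2 was at 73.4, 78.2 and 65.9 CPM in controls and at 161.3, 159.5 and 150.1 CPM with both agents (adjusted p = 3.58e-05). Rora, which competes with them and activates Arntl, rose by 0.62 ± 0.1, and Bhlhe41, another repressor, by 1.21 ± 0.15. Among 9 output genes 7 rose. Dbp, Tef and Hlf encode the 3 PAR bZIP factors that bind D-boxes. Dbp was at 19.3, 28.3 and 20.5 CPM in controls and at 153.6, 113.8 and 83.6 CPM with both agents (2.37 ± 0.23, adjusted p = 0.000302). Tef was at 77.3, 81.2 and 84.8 CPM in controls and at 253.7, 178.7 and 208.3 CPM with both agents (1.4 ± 0.12, adjusted p = 3.58e-05). Combination replicate 1 was the highest for Ciart, Per3, Dbp, Tef and Hlf. Hlf rose by 1.4 ± 0.14 and the Krüppel-like factor gene Klf9 by 0.57 ± 0.08, while the cell cycle inhibitor Cdkn1a, also a p53 target, fell by 1.5 ± 0.24. Tef, Hlf, Nr1d2 and Arntl were called under every alternative and both covariates; Dbp, Per3 and Ciart were not called with the length covariate. With the covariates 3 and 3 of the 11 activators and competitors were called, 2 and 0 of the repressors, and 3 and 2 of the outputs. The labels give no hour of collection, so a shift in clock genes between groups and a difference in sampling time cannot be told apart.

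3 promoter windows show the letters that clock factors are known to bind. CLOCK and ARNTL bind the E-box CACGTG, PAR bZIP factors bind D-boxes such as TTATGTAA, and REV-ERB and ROR proteins share elements close to AGTAGGTNA; the last motif was added after the windows had been read. Windows run from 250 bases before to 50 after each start, from RefSeq on GRCm38.p6. Capitals mark the motif on either strand, which is CACGTG in Ciart (3 matches, chr3:95882179-95882478, minus strand), TTATGTAA in Per3 (2 matches, chr4:151044616-151044915, minus strand) and AGTAGGTNA in Arntl (2 matches, chr7:113207261-113207560, plus strand).
Ciart: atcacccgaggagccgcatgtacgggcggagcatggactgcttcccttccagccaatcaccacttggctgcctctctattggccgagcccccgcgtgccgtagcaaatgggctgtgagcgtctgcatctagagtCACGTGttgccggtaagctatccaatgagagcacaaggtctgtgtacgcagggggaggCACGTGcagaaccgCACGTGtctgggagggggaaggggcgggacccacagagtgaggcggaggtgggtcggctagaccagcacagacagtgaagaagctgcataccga
Per3: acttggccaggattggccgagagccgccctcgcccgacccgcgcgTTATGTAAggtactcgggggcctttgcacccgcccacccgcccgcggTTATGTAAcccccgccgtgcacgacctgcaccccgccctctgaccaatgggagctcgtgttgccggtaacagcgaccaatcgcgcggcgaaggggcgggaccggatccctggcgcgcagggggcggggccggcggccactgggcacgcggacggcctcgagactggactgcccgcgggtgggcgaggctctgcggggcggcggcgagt
Arntl: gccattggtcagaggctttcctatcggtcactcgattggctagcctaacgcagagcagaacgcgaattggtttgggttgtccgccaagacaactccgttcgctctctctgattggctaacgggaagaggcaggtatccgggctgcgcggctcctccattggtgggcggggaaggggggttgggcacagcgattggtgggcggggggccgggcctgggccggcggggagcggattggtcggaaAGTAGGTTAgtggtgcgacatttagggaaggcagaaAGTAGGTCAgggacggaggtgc
CACGTG was in windows of 6 of 22 members of the clock lists (27.3%) and of 8.09% of all 27025 genes. These lists include the output genes and also hold Mthfd1l, an enzyme gene of one-carbon metabolism. TTATGTAA or TTACGTAA was in 1 of the 22 (4.55%) and in 1.23% of all genes, and AGTAGGTNA was in 189 genes of the table (0.699%). No match in a window says only that these letters are not there.

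Cyp1a1 (ENSMUSG00000032315, chromosome 9, 57687928 to 57703824) is the classic target of the aryl hydrocarbon receptor. It was at 3.21, 5.62 and 3.16 CPM in controls and at 92.2, 58.6 and 42.2 CPM with both agents. Each combination library was several times above all controls, with a log2 fold change of 4.01 ± 0.34 (adjusted p = 0.000273). Ahr, the receptor itself, rose by 1.02 ± 0.16, and Ahrr, its repressor and target, by 0.98 ± 0.2. The other 5 of 8 genes of this pathway were not called, and the median was 0.24. The Cyp1a1 call held with the brain covariate and was lost with the length covariate, and no other member was called with either.

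Immediate early genes, which cells switch on within minutes of a stimulus, fell in 8 of 16 cases (median -1.02). Atf3 was at 22, 38.4 and 26.3 CPM in controls and at 4.74, 6.54 and 6.75 CPM with both agents (-2.26 ± 0.4, adjusted p = 0.00628). Egr3 fell by 1.87 ± 0.29, Junb by 0.64 ± 0.13 and Ier2 by 0.72 ± 0.16. Only 4 were called without control replicate 3 or combination replicate 1, and 4 of the 16 were called with the brain covariate, Atf3 among them, and none with the length covariate. Dusp6 and Spry4, feedback inhibitors that ERK signalling induces, fell by 0.8 ± 0.12 and 0.74 ± 0.16, whereas the ERK target Etv5 rose by 0.46 ± 0.12. Among kinases that sorafenib inhibits, Flt1 (VEGF receptor 1) rose by 0.54 ± 0.13 and Pdgfrb fell by 0.36 ± 0.11. The other 8 of 10 were not called, so the share called was near the 16.1% over all genes tested. With the covariates none of the ERK feedback genes or of these kinases was called. Flt1 was not called without control replicate 2 or 3, Pdgfrb not without any control or combination replicate 1 or 3, and Etv5 not without control replicate 2 or combination replicate 1.

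Genes of the unfolded protein response of the endoplasmic reticulum fell in 11 of 18 cases, with a median of -0.5. Sdf2l1 was at 7.81, 10.9 and 19.8 CPM in controls and at 4.03, 4.45 and 3.34 CPM with both agents (-1.7 ± 0.31, adjusted p = 0.00466). Manf, a secreted protein of the same response, was at 40.3, 49.8 and 93.7 CPM in controls and at 19.2, 21.9 and 23.2 CPM with both agents (-1.51 ± 0.33, adjusted p = 0.0159). Hspa5 (BiP), the main chaperone, was at 456.3, 482.1 and 776.6 CPM in controls and at 372.9, 364.6 and 359.0 CPM with both agents (-0.65 ± 0.19, adjusted p = 0.0398). Control replicate 3 was the highest for each. The number of unfolded protein response genes called lower depended on single libraries: 2 were called without control replicate 3, 1 without combination replicate 1, 3 without combination replicate 2 and 5 without combination replicate 3. With the covariates 1 and 0 members of this list were called, and 1 and 0 of 18 integrated stress response genes. Of those 18 genes, 5 fell, 1 rose and 12 were not called (33.3% called, against 16.1% over all genes tested, median -0.25). Atf4 and Atf5, factors of the integrated stress response, fell by 0.49 ± 0.1 and 0.64 ± 0.1. Phgdh and Psat1, enzymes of serine synthesis and ATF4 targets, fell by 1.89 ± 0.36 and 1.16 ± 0.19. Of 11 enzymes of serine synthesis and one-carbon metabolism, 3 fell and 8 were not called (27.3% called, median -0.33). Phgdh was at 7.81, 7.34 and 7.97 CPM in controls and at 2.04, 1.47 and 2.73 CPM with both agents; it is also abundant in glia of the brain. The glial marker Aldoc moved with it, from 16, 13.2 and 15.9 to 2.95, 4.33 and 4.52 CPM, and the part of brain RNA in Phgdh was not tested beyond the covariate, with which neither was called.

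Of 22 genes of cholesterol and fatty acid synthesis, 9 fell and 1 rose (median -0.41), and 3 to 5 were called lower in all but 1 of the fits that left out a library, which was the fit without combination replicate 2, with 7. Sqle, the squalene epoxidase of cholesterol synthesis, was at 5.24, 4.49 and 4.1 CPM in controls and at 2.43, 2.21 and 2.32 CPM with both agents (-0.99 ± 0.2, adjusted p = 0.00584). Its 3 combination values were below all controls. Fdps, an earlier enzyme of the pathway, fell by 0.69 ± 0.13. Acacb, the acetyl-CoA carboxylase at the mitochondrial surface, rose by 0.39 ± 0.1. None of the 10 calls held under either covariate.

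In heart muscle, 13 of 23 contractile genes rose and none fell, with a median of 0.39. The other 10 were not called, and 5 of the 23 were below 0. Myl2 was at 0.02 ± 0.1, Tnni3 at -0.16 ± 0.09 and Tnnc1 at -0.07 ± 0.11 on the log2 scale, none of them called. On FPKM, limma called 7 contractile genes higher with a pseudocount of 0.5, and 8 higher and 1 lower with 0.1. Myh6, the alpha myosin heavy chain of the adult mouse heart, was at 8644.5, 7105.3 and 7677.5 CPM in controls and at 15183.4, 12132.3 and 10472.6 CPM with both agents (0.69 ± 0.13, adjusted p = 0.00515). Myh7, the beta chain that often rises under load, was at 342.4, 386.6 and 450.2 CPM in controls and at 647.3, 457.3 and 683.9 CPM with both agents (0.6 ± 0.15, adjusted p = 0.0201). The groups did not overlap for either gene, yet the Myh7 call was lost in 4 of the 6 fits that left out a library. Tcap, the titin cap, rose by 0.9 ± 0.14 and Myom2, an M-band protein gene, by 0.75 ± 0.14. Ttn, which encodes the giant spring protein titin, was at 1413.2, 1097.5 and 790.5 CPM in controls and at 2301.8, 2214.3 and 1756.9 CPM with both agents (0.93 ± 0.2, adjusted p = 0.0112). Only 8 contractile genes were called without control replicate 2 or combination replicate 1. With the brain and length covariates none was called, and the medians were 0.27 and 0.29. Hspb7, a small heat shock protein gene of muscle, was at 424.4, 420.8 and 404.2 CPM in controls and at 948.2, 938.7 and 884.6 CPM with both agents (1.15 ± 0.15, adjusted p = 0.000666). Of 18 cytosolic heat shock genes it was the only 1 called higher, while 2 were called lower and the median was -0.2. That is 16.7% called, near the 16.1% over all genes tested. No member of that list, Hspb7 included, was called with either covariate.

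Of 16 calcium handling genes, 7 rose and 2 fell. Cacnb2, a subunit of the L-type calcium channel, was at 39.7, 35.1 and 29.8 CPM in controls and at 78.8, 70.3 and 63.6 CPM with both agents (1.02 ± 0.12, adjusted p = 0.000337). The channel pore Cacna1c rose by 0.67 ± 0.11, the sodium-calcium exchanger Slc8a1 by 0.84 ± 0.15 and the release channel Ryr2 by 0.74 ± 0.16. Among 20 ion channel genes, 4 rose and 1 fell; the inward rectifier Kcnj2 rose by 0.8 ± 0.14. Ion channel genes called higher numbered 2 without control replicate 3 or combination replicate 1 or 2. The call of the gene that fell was lost without control replicate 2 or 3 or combination replicate 1 or 2. Adcy6, an adenylyl cyclase, was at 105.5, 101.7 and 93.4 CPM in controls and at 187.0, 172.8 and 208.4 CPM with both agents (0.92 ± 0.12, adjusted p = 0.000673). With the brain covariate, Cacnb2 was the only calcium handling gene called. Without combination replicate 1, 4 calcium handling genes were called higher. Only 1 was called lower without control replicate 2 or 3 or combination replicate 1 or 2. With the length covariate no calcium handling gene was called, and no ion channel gene was with either.

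The natriuretic peptides, which the strained heart releases, did not pass the test, nor did any of 13 natriuretic peptide and atrial genes in edgeR's quasi-likelihood test, although 5 had an unadjusted p under 0.05 and DESeq2 called 1 higher and 1 lower. None was called with either covariate. Nppa was at 778.4, 331.4 and 520.5 CPM in controls and at 300.2, 223.6 and 280.0 CPM with both agents (-1.02 ± 0.74, adjusted p = 0.405). Nppb was at 102.6, 110.0 and 377.3 CPM in controls and at 145.8, 116.8 and 145.5 CPM with both agents (-0.53 ± 0.46, adjusted p = 0.488). Genes of the atria varied widely between libraries: the atrial light chain Myl7 was at 188.2, 99.1 and 105.0 CPM in controls and at 2.11, 4.49 and 29.4 CPM with both agents (-3.45 ± 1.38, adjusted p = 0.133), with no overlap between the groups. Myl4 and Sln, also atrial, were at -3.36 ± 1.4 and -3.44 ± 1.4. The share of atrial tissue in each sample is not given in the labels, and its part in these values was not tested.

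Pde2a degrades cyclic AMP when stimulated by cyclic GMP (ENSMUSG00000110195, chromosome 7, 101421691 to 101512827). It was at 62.9, 49.5 and 57.6 CPM in controls, a mean of 56.7 ± 6.73 CPM (SD, n = 3). With both agents it was at 56.9, 59.8 and 56.2 CPM, a mean of 57.6 ± 1.89 CPM. The groups overlapped, and the log2 fold change was 0.02 ± 0.13 (adjusted p = 0.935). Of 18 phosphodiesterase genes, 3 rose and 3 fell. Pde1c, Pde7a and Pde3a, which hydrolyse cyclic nucleotides in muscle and other cells, rose by 0.69 ± 0.1, 0.65 ± 0.12 and 0.58 ± 0.13. Pde1b fell by 1.29 ± 0.28, and 1 phosphodiesterase gene was called lower without control replicate 1 or 2 or without combination replicate 1 or 3. None was called with either covariate.

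Genes of the FOXO and insulin pathways and of glucose uptake rose in 7 of 15 cases and fell in none (median 0.29). Foxo3 itself was at 42.2, 43.7 and 42.7 CPM in controls and at 100.7, 83.1 and 88.2 CPM with both agents (1.08 ± 0.09, adjusted p = 3.58e-05). All combination libraries were above all controls, and the call held under all alternatives and covariates. The insulin receptor Insr rose by 0.83 ± 0.11, the PI3-kinase subunit Pik3r1 by 0.96 ± 0.14 and its inhibitor Pik3ip1 by 0.91 ± 0.12. Ppargc1a (PGC-1alpha), which drives the making of mitochondria, was at 55.8, 51.4 and 49.2 CPM in controls and at 94.3, 79.6 and 89.2 CPM with both agents (0.75 ± 0.11, adjusted p = 0.000771). Of 14 such metabolic regulators, 5 rose, but only 1 was called without combination replicate 1 and 2 without control replicate 3 or combination replicate 2. With the covariates 2 and 1 genes of the FOXO and insulin list were called and none of the metabolic regulators.

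Of 23 genes of fatty acid uptake and oxidation, 6 rose and none fell (26.1% called, against 16.1% over all genes tested), with a median of 0.13: lipoprotein lipase (Lpl) rose by 0.49 ± 0.11, the thioesterase Acot2 by 0.72 ± 0.14 and the dehydrogenase Acadl by 0.3 ± 0.07. Only 2 members were called without combination replicate 1 and 3 without control replicate 3. Both hexokinases Hk1 and Hk2 rose, by 0.59 ± 0.12 and 0.56 ± 0.12, among 8 of 29 glycolysis and citrate cycle genes that did. Pgam1, a glycolytic mutase gene, fell, so that 31.0% were called. The number that rose was 3 without combination replicate 1 and 5 without control replicate 3. On the log2(FPKM + 0.5) scale the medians of both lists were just below 0, at -0.01 and -0.02. Nuclear genes of the respiratory chain had 2 of 43 called, both lower: Cox7a1 (-0.64 ± 0.12) and Uqcrq (-0.42 ± 0.12), and 13 were called lower without control replicate 1. Of 13 mRNAs of the mitochondrial genome, 3 rose, among them mt-Nd5, from 17355.1, 18422.6 and 13016.1 to 26972.9, 26853.5 and 23086.3 CPM (0.66 ± 0.13, adjusted p = 0.00655). The number was 1 without combination replicate 2 and 2 to 4 in the other fits that left out a library, and DESeq2 called 7. None of these 4 lists had a call with either covariate.

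Collagen and matrix genes were called in 1 direction. Of 29 collagen and matrix genes, 8 fell and none rose, with a median of -0.36. Sparc, a collagen-binding protein gene, was at 268.7, 250.8 and 309.6 CPM in controls and at 176.0, 150.0 and 141.1 CPM with both agents (-0.83 ± 0.1, adjusted p = 0.000455). Col3a1, a fibrillar collagen, was at 231.9, 206.9 and 233.7 CPM in controls and at 162.8, 99.8 and 89.3 CPM with both agents (-0.93 ± 0.17, adjusted p = 0.00466). Combination replicate 1 was the highest of its group for both. Col1a1 was at 75.6, 73.9 and 80.8 CPM in controls and at 74.3, 53.6 and 48.0 CPM with both agents (-0.39 ± 0.18, adjusted p = 0.162), and it was called only when combination replicate 1 was left out. Postn, a marker of activated fibroblasts, was not called (-0.72 ± 0.35, adjusted p = 0.199). Matrix genes called lower numbered 4 without any of the controls or without combination replicate 2. Fibroblast markers had 2 of 14 called lower, Dpt and Lum, and neither without any of the controls or without combination replicate 2. That is 14.3%, against 16.1% called in either direction and 8.14% called lower over all genes tested. With DESeq2 size factors 0 fibroblast markers were called lower. In basement membranes the laminin genes Lama5, Lamb2 and Lamc1 rose, by 0.64 ± 0.14, 0.37 ± 0.11 and 0.43 ± 0.13, and Col4a1 fell by 0.63 ± 0.15. At most 1 basement membrane gene was called higher without control replicate 2 or 3 or without combination replicate 1 or 2. With the covariates 0 and 1 matrix genes were called, and none of the fibroblast or basement membrane lists.

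Endothelial markers moved both ways, with 4 of 20 higher, 3 lower and a median of 0.03; 2 were called higher without control replicate 3 or combination replicate 1. The tight junction gene Cldn5 was at 29.5, 29.7 and 34.8 CPM in controls and at 16.8, 17.3 and 16.8 CPM with both agents (-0.89 ± 0.11, adjusted p = 0.000502). The transcription factor Erg rose by 1.05 ± 0.14 and the phosphatase Ptprb by 0.75 ± 0.17; Ptprb was not called without combination replicate 1. In the endothelin pathway the ligand Edn1 rose by 1.08 ± 0.23 and the receptor Ednra by 0.51 ± 0.12, whereas the other receptor, Ednrb, was at 14.4, 18.8 and 12.8 CPM in controls and at 7.37, 7.0 and 7.61 CPM with both agents (-1.06 ± 0.15, adjusted p = 0.000932). Bmp4, a growth factor of the BMP family, was at 1.75, 1.72 and 2.09 CPM in controls and at 5.97, 5.21 and 5.86 CPM with both agents (1.61 ± 0.23, adjusted p = 0.000977), and its receptors Bmpr1a and Bmpr2 rose by 0.45 ± 0.08 and 0.58 ± 0.11. Of 17 BMP ligands and response genes, 5 rose and 2 fell, but 9 were below 0 and the median was -0.21. In the fits that left out a library, 3 to 5 were called higher and 0 to 2 lower. In pericytes the ATP-sensitive potassium channel subunit Kcnj8 fell by 0.96 ± 0.14, while its partner Abcc9, also of muscle, rose by 1.05 ± 0.22. With the covariates 1 and 0 of 18 angiogenic and vasoactive genes were called, and none of the endothelial, BMP or pericyte lists.

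Long genes of chromatin regulators rose in 11 of 18 cases, with none lower and a median of 0.42. Kmt2a, a histone methyltransferase, was at 25.3, 18.6 and 14.1 CPM in controls and at 33.6, 31.3 and 33.8 CPM with both agents (0.76 ± 0.17, adjusted p = 0.00968). Huwe1, a ubiquitin ligase, rose by 0.71 ± 0.13 and the Mediator subunit Med12 by 0.65 ± 0.13. None was called with either covariate, and with the length covariate the median was 0.01. The number called was 18 without control replicate 1, 7 without combination replicate 3, 6 without control replicate 2, and 3 without control replicate 3 or combination replicate 1.

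Among further genes with the largest changes, Zbtb16, a zinc finger gene that glucocorticoids induce, was at 5.29, 7.51 and 6.04 CPM in controls and at 38.8, 24.6 and 27.8 CPM with both agents (2.28 ± 0.52, adjusted p = 0.021). Its call was lost in 4 of the 6 fits without a library. The non-coding RNA Neat1, the muscle kinase gene Mylk4 and Rhobtb1 rose by 1.37 ± 0.25, 1.36 ± 0.21 and 1.5 ± 0.24. Neat1 was not called with either covariate. Falls included Slamf9, a receptor of the SLAM family (-2.44 ± 0.25), the interleukin-10 receptor Il10ra (-2.04 ± 0.22) and Cyth4, a guanine exchange factor of leukocytes (-1.88 ± 0.15). These 3 held under every alternative and covariate. Sult4a1, a brain sulfotransferase, and the ion channel P2rx7 fell by 2.07 ± 0.51 and 1.95 ± 0.45, and neither held with the brain covariate, without control replicate 3, or without combination replicate 1 or 2.

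**Figure D4:**
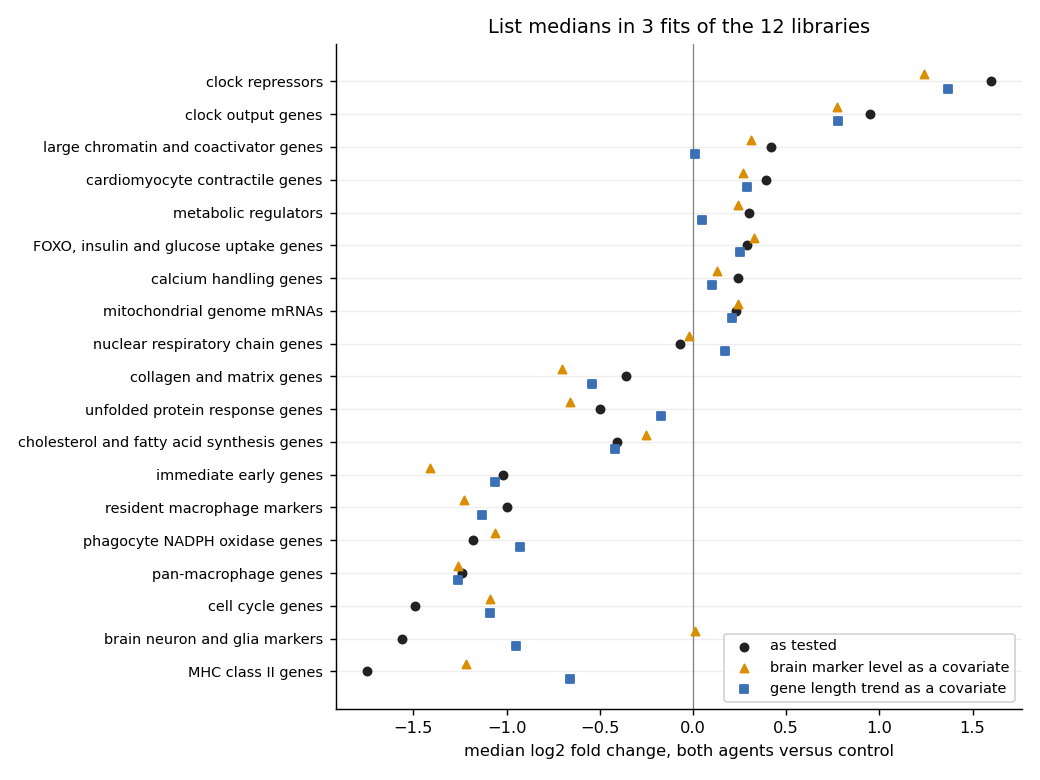
Median log2 fold change of 19 gene lists with both agents against control, as tested, with the brain marker level as a covariate and with the length trend as a covariate. Macrophage, cell cycle and clock repressor medians stay on the same side of 0 in all 3 fits, and the chromatin list goes from 0.42 to 0.01 with the length covariate.

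The 4 groups allow the combination to be compared with each agent alone. Against sorafenib alone, no gene was called in edgeR's quasi-likelihood test (0.0%), although 1216 had an unadjusted p under 0.05 and the smallest adjusted p was 0.16; DESeq2's Wald test called 65. The test of whether the combination departs from the sum of both single effects on the log2 scale called none either, with 1099 genes under an unadjusted 0.05, a smallest adjusted p of 0.53, and 5 genes by DESeq2. Neither count shows that the combination acts like sorafenib alone or that the effects add up. Against PLX3397 alone, 611 genes were called (3.23%), and DESeq2's Wald test called 1207. Without PLX3397 replicate 1, the library whose brain markers were at the control level, 204 of 19433 genes were called (1.05%), 46 higher (0.237%) and 158 lower (0.813%). In that fit 9 pan-macrophage, 7 resident macrophage and 9 cell cycle genes were lower and 4 clock repressors and 4 clock outputs were higher with the combination. The medians were -0.96 for both macrophage lists, -1.15 for the cell cycle and 1.32 for clock repressors, and the median of the brain markers was 0.15.

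Against the same controls, which all 3 comparisons share, 500 genes were called with sorafenib alone (2.65%) and none with PLX3397 alone (0.0%) in edgeR's quasi-likelihood test. With PLX3397 alone, 2325 genes had an unadjusted p under 0.05, the smallest adjusted p was 0.361, and DESeq2's Wald test called 100. Csf1r had a log2 fold change of -1.17 ± 0.17 with sorafenib and -0.28 ± 0.16 with PLX3397, against -1.9 ± 0.17 with both. The pan-macrophage median was -0.98 with sorafenib, -0.24 with PLX3397 and -1.24 with both. For the cell cycle list these medians were -1.02, -0.04 and -1.49, and for clock repressors 0.97, -0.05 and 1.6. The PLX3397 medians include PLX3397 replicate 1, which stood apart in brain markers. Relative to the control mean, the cell cycle level was 0.36 in that library and -0.18 and -0.36 in the other PLX3397 libraries, and the pan-macrophage level was -0.06 against -0.33 and -0.32. For contractile genes the medians were 0.2 with sorafenib, -0.02 with PLX3397 and 0.39 with both. Cyp1a1 was at 3.81 ± 0.33 with sorafenib, 1.51 ± 0.32 with PLX3397 and 4.01 ± 0.34 with both. Pde2a was at 0.37 ± 0.13 with sorafenib (adjusted p = 0.134) and 0.06 ± 0.13 with PLX3397. For these 4 lists the median with both agents was farther from 0 than with either agent alone. For other lists it was not: the medians with sorafenib alone and with both agents were -0.49 and -0.31 for ERK feedback genes, 0.33 and 0.24 for aryl hydrocarbon receptor genes, and 0.19 and -0.01 for angiogenic and vasoactive genes. These differences between lists were not tested.

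**Figure D5:**
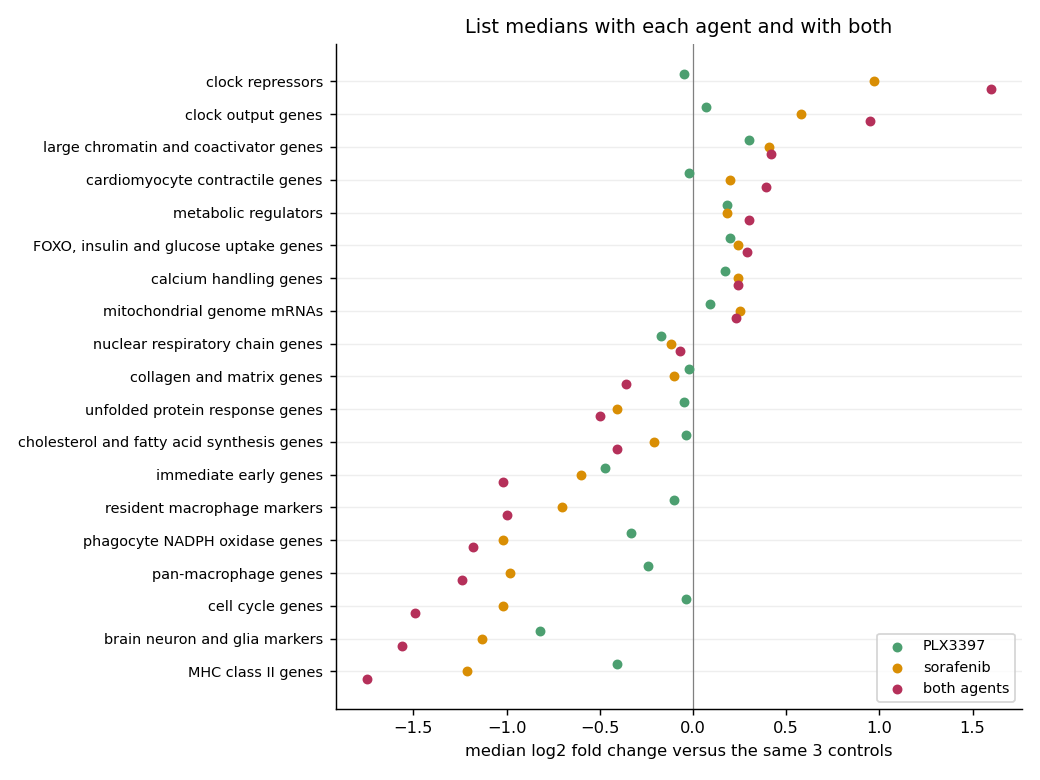
Median log2 fold change of 19 gene lists against the same 3 controls with PLX3397 alone, sorafenib alone and both agents. The pan-macrophage median is -0.24, -0.98 and -1.24 in that order, and the cell cycle median is -0.04, -1.02 and -1.49.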

How the data were processed

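Groups were taken from the titles of the 12 heart libraries, 3 per group. Trizol extraction, oligo(dT) selection and a dUTP-labelled second strand are given in the labels' protocols. The authors deposited estimated counts per gene and library, per the file headers; all are whole numbers, and the value 4 occurs 12143 times, 3 occurs 5303 times and 5 occurs 3364 times, so what 1 count stands for is not known. The FPKM columns, also deposited, carry the authors' scaling to gene length and library size, per the file headers. The submitters' processing notes name the mm10 build, DESeq2 and edgeR. Versions of both, the aligner, the counting program and any strand setting: not given in the sources used here. Overlapping, antisense and near-identical genes therefore have uncertain values.

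Counts were tested with edgeR 4.0.16 in R 4.3.3, after filterByExpr (minimum count 10, minimum total 15) and TMM scaling, by a robust quasi-likelihood fit of the 4 group means to all 12 libraries. Two-sided p-values were adjusted across all tested genes (Benjamini-Hochberg), with calls at an adjusted p under 0.05. The SE of a log2 fold change was derived from the F statistic. List levels used log2 CPM with a prior count of 2. Exon lengths came from GENCODE vM21, which holds 30109 (99.7%) of the gene identifiers, and for 59 duplicated symbols the row with the highest mean count was used. Alternatives were DESeq2 1.42.0, limma 3.58.1 on log2(FPKM + 0.5) and log2(FPKM + 0.1), other filters, scalings and sample sets, the replicate number as a block, a test against a 1.2-fold change, and each library left out. The covariates for brain markers and gene length were added after the data were seen. The procedure was tested on simulated data. Total counts were 61626404 to 64537365 per library; the tests use the spread between libraries, which includes counting error.

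Named genes were 17 genes whatever their result, the 15 largest rises and falls among called genes with at least 1 FPKM and no overlap between groups, the 5 smallest p-values in each direction, and up to 4 called members of each list; other genes named were chosen after their values were seen. The comparison, its lists and this rule were chosen with earlier results of these data known. Promoter windows were matched by symbol to the RefSeq table of 32851 windows for 27025 genes on GRCm38.p6. This gave windows for 22 members of the clock lists, outputs included, and for 26 cell cycle genes. Figures were drawn with Matplotlib 3.10.9. Results of some genes are not reported here.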

Additional observations from a re-analysis of the deposited data

How the results depend on the processing

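Total counts were even across libraries. Whether depth limits the genes named, above all those under 1 CPM, was not tested, as what 1 count stands for is not known. With counts divided by 4, 3538 genes were called. With 3 libraries in each group, no permutation of samples can reach a p under 0.1. The number called changed most with the covariates added after seeing the data: 88 (30 higher, 58 lower) with the brain marker level and 42 (11 higher, 31 lower) with the gene length trend. A test against a 1.2-fold change called 943 (365 higher, 578 lower). On FPKM, limma called 515 higher and 2862 lower with a pseudocount of 0.5, and 509 and 2832 with 0.1. Thus 15.3% and 15.2% of those calls were higher, against 49.5% in the main test. The median of all genes there was -0.09 and -0.14. Those fits did not use the TMM factors, which were higher in every control than in every combination library. DESeq2's Wald test called 65 genes against sorafenib alone, 1207 against PLX3397 alone and 5 for the interaction. Over the fits that left out a library, calls against control ranged from 1261 to 3274, with 596 to 1906 higher and 656 to 1368 lower; against sorafenib alone they ranged from 0 to 2, against PLX3397 alone from 177 to 391, and for the interaction from 0 to 2. Other filters and scalings gave 2529 to 3538 calls. Of the 205 named genes 200 were called; 135 kept their call in all 6 fits without a library, 121 under all 17 alternatives other than the covariates, 34 with the brain covariate and 17 with the length covariate. With the length covariate the log2 fold changes of Gpx4 (0.05), Lamc1 (-0.05) and Uqcrq (0.0) were no longer on the side reported. The cause of these differences was not tested.

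The replicate number as a block gave 2465 calls against control (1201 higher, 1264 lower), 433 against PLX3397 alone, 0 against sorafenib alone and 0 for the interaction. Same-numbered control and combination libraries deviated from their group means with correlations of 0.064, -0.039 and 0.018, so the numbers were not taken to pair the samples.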

Other observations

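Of 21 p53 target and apoptosis genes, 2 rose and 4 fell: Sesn1, a sestrin that restrains mTORC1, rose by 0.47 ± 0.09 and the survival gene Mcl1 by 0.32 ± 0.07 (log2 scale, SE), while the death gene Bax fell by 0.65 ± 0.12. Without control replicate 3 or combination replicate 1, 2 were called lower, and without control replicate 1, 4 were called higher. Of 23 NRF2 and antioxidant genes, 4 were called (17.4%, near the 16.1% over all genes tested), with a list median of 0.0: catalase (Cat) rose by 0.42 ± 0.09, and G6pdx, Srxn1 and Gpx4 fell by 0.58 ± 0.17, 0.37 ± 0.11 and 0.41 ± 0.13. None of those 3 was called without control replicate 3 or combination replicate 1 or 2. Of 13 glucocorticoid-responsive genes, 3 rose and 3 fell; Sgk1 and Dusp1 fell by 0.89 ± 0.2 and 0.75 ± 0.17, whereas Zbtb16, Klf9 and Mt2 rose, and 1 was called higher without control replicate 2 or 3 or combination replicate 1 and 1 lower without control replicate 3. Of 23 autophagy and lysosome genes, the hexosaminidase gene Hexa fell by 0.48 ± 0.12, and the lysosomal membrane gene Lamp2 rose by 0.35 ± 0.09. With the covariates 0 and 1 p53 target and apoptosis genes were called, and 1 and 0 glucocorticoid-responsive genes. No member of the NRF2 and antioxidant list or of the autophagy and lysosome list was called with either. The cytoskeletal actin gene Actb, named after its values were seen, was at 287.3, 278.6 and 328.3 CPM in controls and at 151.2, 163.9 and 163.2 CPM with both agents (-0.9 ± 0.09, adjusted p = 0.000146), a call that held under both covariates.

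Of 9 Schwann cell and neuron markers, 3 fell, among them the myelin gene Mbp and the glial gene S100b, both of which the brain also expresses; 1 was called lower without control replicate 3 or combination replicate 1 or 2. Cdh19, a cadherin of Schwann cells, rose by 0.9 ± 0.25 and was not called without control replicate 2 or 3 or combination replicate 2 or 3. Of 8 erythroid genes Alas2, the first enzyme of haem synthesis in red cell precursors, rose by 1.09 ± 0.28, a call lost without any of the controls or without combination replicate 1. Of 13 adipocyte markers tested, 1 was called: Acsl1, an acyl-CoA synthetase that heart muscle also expresses, rose by 0.46 ± 0.1. The list summed to 1330 to 1350 CPM in controls and to 1540 to 1600 CPM with both agents. Its median log2 fold change was nevertheless -0.3, and 9 of the 13 markers were below 0. The mean log2 level of the list relative to the control mean was 0.18, -0.26 and 0.07 in controls and -1.38, -1.39 and 0.29 with both agents. Adipoq, which encodes adiponectin, was at 0.974, 0.415 and 0.534 CPM in controls and at 0.0675, 0.0 and 1.09 CPM with both agents. No member of the Schwann cell and neuron, erythroid or adipocyte lists was called with either covariate. Gm10800, a predicted gene named after its values were seen, was at 1.46, 0.8 and 1.14 CPM in controls and at 12.3, 14.2 and 14.7 CPM with both agents (3.59 ± 0.31, adjusted p = 4.73e-05), and its call held under both covariates. All 3 combination libraries were far above the controls.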
